A study of Homo sapiens with 6 samples.

Results

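A group of 78 rows was taken from the 1161 listed genes because their transcripts were all but missing from cells that had kept a membrane dye. The rule asked for at most 3 estimated counts in each of the 3 GFP+CV+ (dormant) libraries and more than 3 in at least 1 of the 3 GFP+CV- (proliferating) libraries. It then left out clone-named transcripts, LINC genes, numbered antisense genes, several large gene families and 10 single genes. Without that name filter 140 listed rows met the counts. The 78 rows are 77 distinct genes, because *CRLF2* has a row for its X copy and another for its Y copy. The name given to the group, coding genes undetected in dye-retaining cells, held only in part. GENCODE 44 has 70 of them as protein-coding, 3 as processed pseudogenes, and 1 each as a unitary pseudogene, a long noncoding RNA, a small nucleolar RNA and a miscellaneous RNA, and the Y copy of *CRLF2* was not matched. Of the 78, 47 had an estimated count above 0 in some dormant library. All values of the contrast between dormant and proliferating cells chose these genes, so they are given as a description and carry no test.

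Dormancy of disseminated tumour cells is a non-dividing state from which metastases can grow out late. CellVue Claret (CV) is a lipophilic dye that sits in the cell membrane and is shared between daughter cells, so that each division dims it and cells that stay bright are taken as not having divided. A gene with no reads in a library made from few cells can be silent in them, or it can be expressed at a level or in a share of cells that the sampled RNA did not capture. In bulk libraries like these, fewer cells of a type and less RNA per cell cannot be told apart.

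The cells were MDA-MB-231, a human triple negative breast cancer line, carrying green fluorescent protein (GFP) and stained with CV before injection into the internal carotid artery of female C.B-17 SCID mice aged 6 to 8 weeks. SCID mice lack mature T and B lymphocytes but keep their other leukocytes. In 3 independent experiments, left brain hemispheres were dissociated at day 28 and both populations were sorted from the same pools of 10 mice in replicates 1 and 2 and of 9 mice in replicate 3, so each library is 1 pool and 1 population. GFP+CV- cells had lost the dye, were called proliferating and far outnumbered the others. GFP+CV+ cells had kept it and were called dormant or cell cycle-inactive. Both populations share the line, the GFP tag, the staining, the host and the day. RNA was amplified as full-length cDNA by Smart-seq2 and counted against the human genome after reads assigned to mouse had been discarded.

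The listed genes held 11413726 to 17928784 estimated counts per proliferating library and 7978657 to 10695947 per dormant one. These are sums over a selected table, so the depth of the whole libraries is unknown. A count of 0 was given to 8 to 25 listed genes per proliferating library and to 115 to 127 per dormant one. Even numbers made up 64.2% to 87.9% of the whole-number counts from 1 to 50. Intervals and floors below cover at most counting error, since the reads carry no molecular identifiers. The table holds genes that the authors called, so the markers of the line itself could not be checked in it.

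Among the 234 values of the 78 genes in the dormant libraries, 171 (73.1%) were 0, 9 were 1, 32 were 2 and 3 were 3, and 19 were not whole numbers. A total of 31 genes were at 0 in every dormant library, 33 were above 0 in 1 of them, 12 in 2 of them and 2 in all 3. Summed over the 78 genes, the counts were 34.67, 35.65 and 28 in dormant replicates 1, 2 and 3, against 16690, 12760 and 11520 in proliferating replicates 1, 2 and 3. The rule caps every dormant value at 3, so small dormant sums follow from it and nothing is read from their closeness. In proliferating cells every one of the 78 genes had at least 10 counts in each library. The rule asked for more than 3 in only 1 of them. The listed genes were, however, picked by the authors as differing between these same libraries, which favours genes high in every proliferating library. Nothing is therefore read from this minimum.

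**Figure D1:**
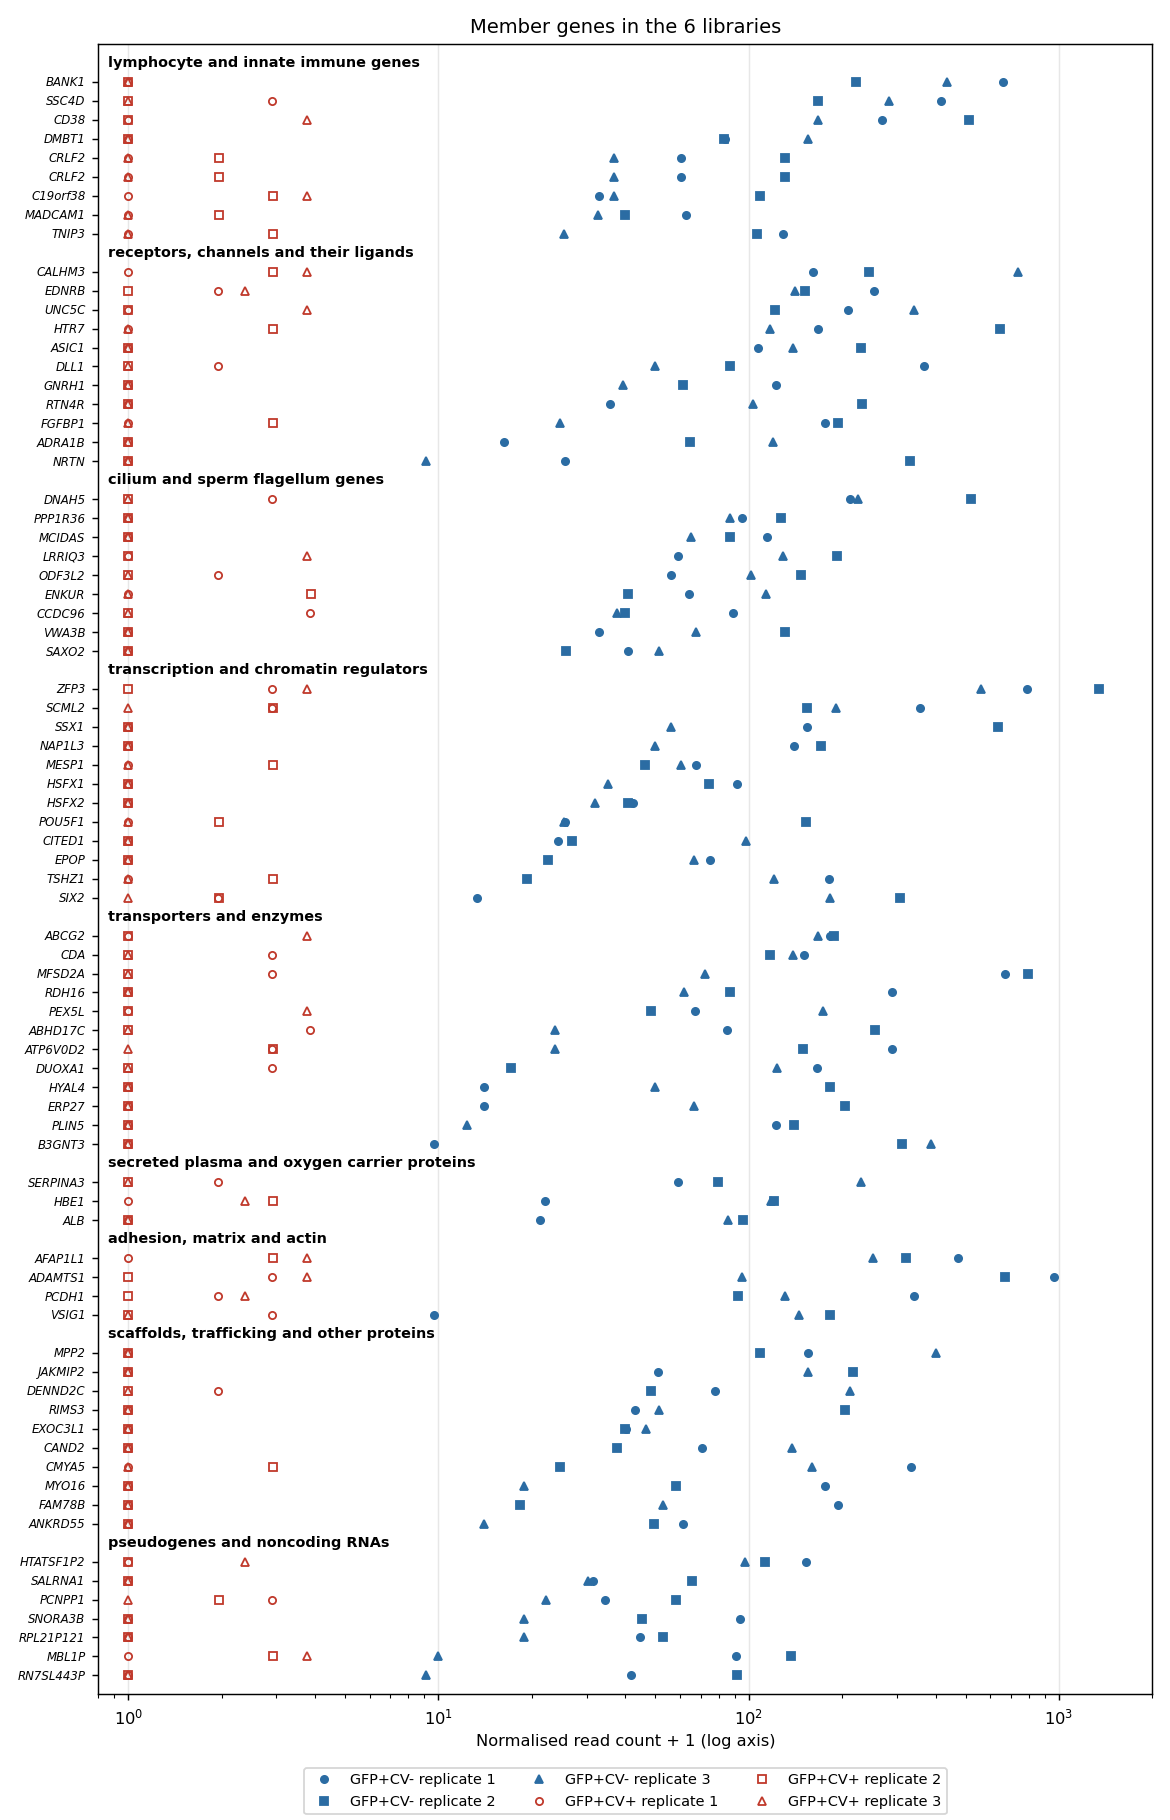
Normalised read count plus 1 (log axis) of 77 of the 78 rows in the 6 libraries, grouped by role. Filled blue symbols are GFP+CV- and open red symbols GFP+CV+ libraries, with a symbol for each replicate, and a value of 1 on the axis is a count of 0. The red symbols sit at or near 1 for every gene shown and the blue ones spread from 8.13 to 1340 normalised read counts.

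The mean normalised read count in proliferating cells ran from 37.2 to 897, with a median of 104.2. At the level of its lowest proliferating library, a gene of this group would have given between 5.88 and 405 counts in dormant replicate 3, the library with the smallest size factor, with a median of 26.5 and more than 10 counts for 68 of the 78 genes. Set against 3 counts in each dormant library, the mean proliferating level was 11.3- to 272-fold higher, with a median of 31.6. By edgeR (quasi-likelihood fit, adjusted over the table by Benjamini and Hochberg), 50% of the table was called lower in dormant cells, and the 78 genes were among the calls. The 3 dormant values were below all 3 proliferating values for 50.2% of the table and for 78 of these genes. Both counts follow from the rule together with the authors' choice of the listed genes, and nothing is read from them. With edgeR's own filter on low counts 73 of the 78 stayed in the fit, and *MBL1P*, *VSIG1*, *RN7SL443P*, *NRTN* and *B3GNT3*, whose lowest proliferating counts were 10 to 12, did not.

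**Figure D2:**
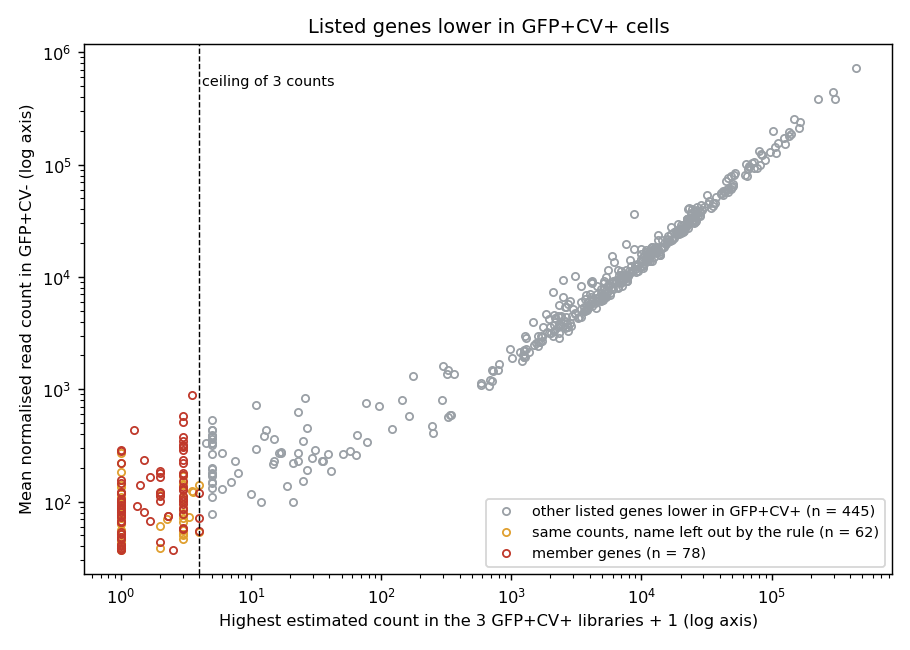
The 585 listed genes that were lower in GFP+CV+ cells, with the highest estimated count in the 3 GFP+CV+ libraries plus 1 on the horizontal axis and the mean normalised read count in GFP+CV- cells on the vertical axis, both log axes. The dashed line marks the ceiling of 3 counts, with the 78 member genes in red, 62 genes with the same counts but a name that the rule leaves out in orange, and the remaining genes in grey. The members lie at the low end of proliferating levels, and grey genes continue right beyond the line.

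The ceiling cut through a continuous range. Just inside it were *CCDC96*, *ENKUR* and *ABHD17C*, with 3 counts in 1 dormant library, and *ZFP3*, with 2.5. Just outside it, with the same names left out as in the rule, were 17 genes whose highest dormant count was 3.5 to 5, 15 of them at 4. They were *C2orf16*, *C6orf118*, *C8G*, *CDH3*, *DEPTOR*, *LZTS1*, *MARCHF1* (in the table as the date number 36951), *MVB12B*, *P2RY6*, *PELATON* (*SMIM25* in the table), *RAB37*, *RHPN2*, *RNU2-63P*, *SMIM31*, *TLR5*, *TPPP3* and *CCDC102A*. Their mean proliferating levels of 77 to 432 normalised read counts overlapped those of the members. *TLR5*, the receptor for bacterial flagellin, had 239, 822 and 102 counts in the proliferating and 2, 4 and 2 in the dormant libraries.

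Genes of lymphocytes and innate immunity formed 10 rows, with mean proliferating levels of 44 to 438 normalised read counts. *BANK1* (ENSG00000153064.11, plus strand of chromosome 4, 101411286 to 102074812 in GRCh38) encodes a scaffold of B cell receptor signalling. Its counts were 910, 204 and 534.2 in proliferating and 0, 0.25 and 0 in the dormant libraries. The mean was 437.9 ± 219.8 (SD, n = 3) normalised read counts in proliferating cells. Replicate 1 was 2.99-fold above replicate 2, and no dormant library overlapped them.

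*CD38*, a membrane enzyme that consumes NAD and marks activated lymphocytes and plasma cells, had 369.67, 473 and 204 counts in the proliferating and 0, 0 and 2 in the dormant libraries. Its ratio of proliferating to dormant level was 443, with a 95% exact Poisson interval of 123 to 3660 that follows from the 2 dormant counts. Such intervals take each count as independent and rest on the counts that chose the gene. Since 32 dormant values were 2 and 9 were 1, they may be too narrow even for counting error. *SSC4D*, a member of the scavenger receptor cysteine-rich family, had 572, 154 and 348 against 2, 0 and 0. Its ratio of 406 had an interval of 112 to 3348. Both intervals are wide because the dormant counts are so few.

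The remaining immune genes were lower in level. *DMBT1*, a secreted scavenger receptor of mucosal surfaces, had 114, 76 and 190 counts in the proliferating and 0 in every dormant library. *CRLF2*, a subunit of the receptor for thymic stromal lymphopoietin, had 82, 120.5 and 44 against 0, 1.29 and 0. Its rows for the X and the Y copy hold the same values and count as 1 gene. *MADCAM1*, the vascular addressin to which gut-homing lymphocytes bind, *TNIP3*, which restrains NF-kappaB signalling, and *C19orf38* had means of 44 to 85.9 normalised read counts.

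Markers of lymphocytes were checked as a list. *CD38* and *BANK1* are on it, while *MS4A1*, *CD3E* and *PAX5*, which also are, were not in the table and were not analysed here. Of 13 markers of microglia and macrophages, 1 was in the table. That gene, *ITGB2*, had 1415.83, 1188.1 and 226 counts in the proliferating and 3, 24.9 and 4 in the dormant libraries. Its lowest proliferating library was replicate 3, as for *CD38* but not *BANK1*. The cells had been sorted as GFP+ and mouse-mapped reads discarded, and any part of RNA from host leukocytes in these values was not tested.

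Receptors, channels and their ligands made up 11 rows, with means of 65.8 to 379 normalised read counts. *CALHM3*, a pore subunit of the channel through which taste cells release ATP, had 220, 225 and 905 counts in the proliferating and 0, 2 and 2 in the dormant libraries. Per kilobase of exon it was the highest of these 11 rows, at 230 normalised read counts. *EDNRB*, an endothelin receptor of endothelium, glia and melanocytes, had 349, 140 and 172 against 0.67, 0 and 1. *UNC5C*, a netrin receptor that guides axons, had 286, 112 and 419 against 0, 0 and 2. For these 3 genes the lowest proliferating library held 120.8 to 159.5 normalised read counts and the highest dormant one 1.38 to 2.76.

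*HTR7*, a serotonin receptor, had 229, 596 and 143 counts in the proliferating and 0, 2 and 0 in the dormant libraries. *ASIC1*, an acid-sensing sodium channel, had 146, 212 and 169 against 0 in each, and was at least 47.8-fold higher in proliferating cells. Also at 0 in all dormant libraries were *RTN4R*, the receptor for the myelin inhibitor Nogo, *GNRH1*, the precursor of gonadotropin-releasing hormone, *ADRA1B*, an adrenergic receptor, and *NRTN*, the neurotrophic ligand neurturin. The Notch ligand *DLL1* had 505, 80 and 60 counts against 1, 0 and 0. *FGFBP1*, a carrier that releases fibroblast growth factors from the matrix, had 242, 179 and 29 against 0, 2 and 0. Levels of this group were uneven, and 6 of the 11 rows differed by at least 5-fold among the proliferating libraries.

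Cilium and sperm flagellum genes formed 9 rows, and in this group none of the genes differed by 5-fold or more among proliferating libraries. Motile cilia beat by means of axonemal dyneins on a microtubule core and are the business of multiciliated cells such as the ependyma, which lines the brain ventricles. *DNAH5* (minus strand of chromosome 5, 13690328 to 14011818), the heavy chain of an outer dynein arm, had 291, 481 and 276 counts in the proliferating and 2, 0 and 0 in the dormant libraries. *MCIDAS* (minus strand of chromosome 5, 55219564 to 55227315), a regulator that switches cells to multiciliation, had 157, 80 and 79 against 0 in each. *PPP1R36*, a regulatory subunit of protein phosphatase, had 130.33, 116.67 and 105.67 against 0 in each. The proliferating values of *PPP1R36* lay within 1.46-fold of each other and those of *MCIDAS* within 1.76-fold.

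*LRRIQ3* had 80, 178 and 158 counts in the proliferating and 0, 0 and 2 in the dormant libraries. *ENKUR*, an adaptor inside ciliary microtubules, had 87, 37 and 139 against 0, 3 and 0. *CCDC96*, a ciliary coiled-coil protein, had 121, 36 and 45 against 3, 0 and 0. These last 2 genes had ratios of 67.6 and 51.1, with 95% exact Poisson intervals of 23.1 to 328 and 17.5 to 248. *ODF3L2*, of the outer dense fibre family, *SAXO2*, a stabiliser of axonemal microtubules, and *VWA3B* had means of 38.4 to 101 normalised read counts.

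A list of 96 motile cilium genes was set beside them. Of these, 9 were in the table, of which 8 were lower in dormant cells and 1 was higher, where 50.4% of all listed genes were lower. The 8 included 6 members, *DNAH5*, *MCIDAS*, *ENKUR*, *CCDC96*, *SAXO2* and *ODF3L2*, and 2 others, *TPPP3* with 232, 218 and 128 counts against 2, 2 and 4, and *CFAP43* with 432, 142 and 270.5 against 2, 22 and 0. The gene that was higher, *DNAAF2*, a factor that assembles dynein arms, had 5054, 3435 and 4240 counts in the proliferating and 7743, 5192 and 5028 in the dormant libraries. The list was written with the members known, so this count is not independent of them. Of 6 markers of ependymal cells, 3 were in the table, all of them members. This list too was written with the members known. Its other genes, *FOXJ1* among them, were not in the table.

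Transcription and chromatin regulators formed 12 rows. *ZFP3* (plus strand of chromosome 17, 5078467 to 5096374), a zinc finger protein, had the highest mean normalised read count of the 78, not corrected for length, with 1090, 1243 and 688.5 counts in the proliferating and 2, 0 and 2.5 in the dormant libraries. Its mean was 896.5 ± 401.3 (SD, n = 3) normalised read counts, and its ratio of 631 had a 95% exact Poisson interval of 247 to 2317. *SCML2*, a Polycomb-related protein of the germ line, had 491, 142 and 234 against 2, 2 and 0. *NAP1L3*, of the nucleosome assembly family, had 192, 158 and 60 against 0 in each dormant library. Against the floor of 3 counts per library it was at least 36.3-fold higher in proliferating cells.

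*SSX1*, a cancer-testis antigen and repressor, had 211.08, 587.17 and 68 counts in the proliferating and 0 in every dormant library. The proliferating libraries differed 11.3-fold. Of the 31-base words of *SSX1* transcripts, 39.9% also occur in transcripts of other genes, so its count may include reads of relatives.

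*HSFX1* and *HSFX2* are copies of a heat shock factor-related gene on chromosome X, at 149774068 to 149776867 on the plus strand and 149592512 to 149595314 on the minus strand. They had 125, 67.75 and 42 and 57, 36.75 and 38 counts in proliferating libraries and 0 in every dormant one. Their transcripts share 98.4% and 98.2% of 31-base words, and the 250 bases before their starts differ at 0 positions. The rows hold different counts, so some reads were assigned to 1 copy, but how the shared reads were divided between them is uncertain.

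*POU5F1*, the pluripotency factor, had 33.9, 141.17 and 30 counts in the proliferating and 0, 0.67 and 0 in the dormant libraries, and shares 51.9% of its words with other genes, among them *POU5F1B*. *CITED1*, a transcriptional coactivator, and *EPOP*, a partner of Polycomb and elongin, were at 0 in all dormant libraries with means of 48.6 and 53.8 normalised read counts. Of the words of *CITED1*, 35.3% occur in transcripts of other genes. *MESP1* and *SIX2*, factors of early mesoderm and of kidney progenitors, and *TSHZ1* had means of 57.1, 167 and 106, with at most 2 counts in a dormant library.

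The 250 bases before the start of 4 of these genes are shown because the genes stand for the main patterns, *BANK1* for the immune genes, *MCIDAS* for the cilium genes, *ZFP3* for the highest mean normalised read count, not corrected for length, and *HSFX1* for the duplicated pair. They are RefSeq windows on GRCh38.p14, written in the direction of transcription, and capitals mark each CG dinucleotide. RefSeq windows were at hand for 52 of the 77 genes, which is too small a share for a check of base composition over the group, so that check is void and its values are not given. The windows are *BANK1* at chr4:101790480-101790729, *ZFP3* at chr17:5078217-5078466, *MCIDAS* at chr5:55227316-55227565 and *HSFX1* at chrX:149773818-149774067, of which that of *MCIDAS* is on the minus strand and the others are on the plus strand.
BANK1: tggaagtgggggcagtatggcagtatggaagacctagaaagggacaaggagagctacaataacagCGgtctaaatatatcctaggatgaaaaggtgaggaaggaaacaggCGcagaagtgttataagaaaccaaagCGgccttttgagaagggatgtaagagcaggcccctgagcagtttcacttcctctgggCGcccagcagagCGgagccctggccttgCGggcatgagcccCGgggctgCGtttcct
ZFP3: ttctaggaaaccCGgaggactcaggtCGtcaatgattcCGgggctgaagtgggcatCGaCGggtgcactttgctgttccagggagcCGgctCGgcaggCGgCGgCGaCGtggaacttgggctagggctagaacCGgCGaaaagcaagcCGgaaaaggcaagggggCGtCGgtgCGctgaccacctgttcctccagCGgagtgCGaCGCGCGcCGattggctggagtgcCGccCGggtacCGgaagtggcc
MCIDAS: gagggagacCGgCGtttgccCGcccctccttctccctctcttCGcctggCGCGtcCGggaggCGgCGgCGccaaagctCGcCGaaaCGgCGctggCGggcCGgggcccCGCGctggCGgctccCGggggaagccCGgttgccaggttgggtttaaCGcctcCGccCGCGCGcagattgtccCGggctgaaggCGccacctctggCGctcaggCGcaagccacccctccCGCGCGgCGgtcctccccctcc
HSFX1: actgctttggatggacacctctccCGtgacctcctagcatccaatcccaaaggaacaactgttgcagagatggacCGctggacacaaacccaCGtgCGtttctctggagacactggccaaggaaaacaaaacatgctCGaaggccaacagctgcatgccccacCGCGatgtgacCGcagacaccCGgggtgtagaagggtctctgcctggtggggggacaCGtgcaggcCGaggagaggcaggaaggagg

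These windows hold 8, 26, 34 and 11 CG dinucleotides, in the order given. The *BANK1* window lies inside the longer GENCODE gene, because the RefSeq start is further downstream. The motif GTTGCC was searched on both strands. The TATA box (TATAAA), the CCAAT box and the GC box (with letters GGGCGG) were searched too, and were found in 3, 18 and 26 of the 52 windows. Over all listed genes, members included, they were found in 64, 271 and 522 of 797 windows. Windows were missing for members and for other listed genes alike, at hand for 797 of 1159 listed names. The motif counts are therefore a description, and no difference between sets was tested. GTTGCC was found in 9 of the 52 windows (17.3%). It was in 79 of the 797 listed windows (9.91%) and in 10.1% of all RefSeq windows. Among other listed genes lower in dormant cells it was in 31 of 352 (8.81%). These letters are part of the X-box to which RFX factors of ciliary genes bind, and binding at these genes was not tested. Among the 9 members with GTTGCC were the cilium genes *MCIDAS*, *ENKUR* and *SAXO2*, and 6 genes of other roles, *DMBT1*, *EDNRB*, *FGFBP1*, *JAKMIP2*, *PLIN5* and *SCML2*. The 6 cilium and sperm flagellum genes with a window also include *DNAH5*, *LRRIQ3* and *PPP1R36*, which do not hold these letters in these bases.

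Transporters and enzymes formed 12 rows, and 8 of them differed by at least 5-fold among proliferating libraries. *ABCG2*, an efflux pump for many drugs, did not, with 250, 174 and 204 counts in the proliferating and 0, 0 and 2 in the dormant libraries. Its proliferating mean of 178.2 ± 11.21 (SD, n = 3) normalised read counts had the smallest spread of the 78, at 1.13-fold. *CDA*, cytidine deaminase, had 206, 108 and 170 against 2, 0 and 0, and its libraries lay within 1.28-fold.

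*MFSD2A*, which carries lysophosphatidylcholine with docosahexaenoic acid across the blood-brain barrier, had 920, 734 and 88 counts in the proliferating and 2, 0 and 0 in the dormant libraries. Replicate 3 was 10.9-fold below the highest library. *RDH16*, a retinol dehydrogenase, had 398, 80 and 74.67 against 0 in each, where replicate 1 stood above the other two. *MFSD2A* is also 1 of 8 markers listed for endothelium and mural cells, of which 2 were in the table. The other, *PDGFRB*, was higher in dormant cells, with 2688, 4609 and 3442 counts against 643, 264 and 341.33 in proliferating libraries. The list joins endothelium and mural cells, and these 2 genes did not go the same way.

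*ABHD17C*, a depalmitoylating hydrolase, had 116, 235 and 28 counts in the proliferating and 3, 0 and 0 in the dormant libraries. *B3GNT3*, a glycosyltransferase, had 12, 289 and 474 against 0, 0 and 0.5, the widest spread of the 78 at 39.8-fold. *ERP27*, a redox-inactive protein of the endoplasmic reticulum, had 18, 188 and 81 against 0 in each. The others, *HYAL4*, *PLIN5*, *PEX5L*, *ATP6V0D2* and *DUOXA1*, ran from 11.4 to 289 normalised read counts in single proliferating libraries. They encode a hyaluronidase-family protein, a coat protein of lipid droplets, a peroxin relative, a proton pump subunit and a maturation factor of dual oxidase.

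Plasma and oxygen carrier proteins gave 3 rows. *SERPINA3*, an acute phase protease inhibitor, had 80, 73 and 282 counts in the proliferating and 1, 0 and 0 in the dormant libraries. Of its words, 30.3% occur in transcripts of other genes. *HBE1*, the embryonic beta-like globin, had 29.25, 110.92 and 144 against 0, 2 and 1.2, and 81.6% of its words occur in transcripts of other genes. *ALB*, serum albumin, had 28, 88 and 103.5 against 0 in each. After normalisation replicate 1 was the lowest proliferating library for all 3 genes. Of 8 erythroid markers *HBE1* alone was in the table. Of 8 hepatocyte markers *ALB*, *AFP* and *SERPINA1* were, and all 3 had a lower mean in dormant cells, *SERPINA1* with 19063, 10418 and 25482 counts against 5955, 3293 and 2887.

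Adhesion, matrix and actin genes gave 4 rows. *AFAP1L1*, which binds actin filaments, had 650, 296 and 309 counts in the proliferating and 0, 2 and 2 in the dormant libraries. *ADAMTS1*, a matrix metalloprotease, had 1330, 621 and 116 against 2, 0 and 2. *PCDH1*, a protocadherin, had 469, 85 and 160 against 1, 0.25 and 1. *AFAP1L1* was steady among proliferating libraries, within 1.87-fold, and *ADAMTS1* was not, at 10.1-fold. *VSIG1*, a junctional protein of gastric epithelium, had 12, 169 and 178 against 2, 0 and 0, and its lowest proliferating library was closer to the dormant ones than for any of the other 3.

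Scaffolds, trafficking proteins and others gave 10 rows, of which 6 were at 0 in every dormant library. *MPP2*, a synaptic scaffold, had 212, 100 and 491 counts in proliferating libraries and was at least 66.9-fold higher there, against the floor of 3 counts per library. *RIMS3*, a presynaptic active zone protein, had 58, 189 and 62 against 0 in each. *JAKMIP2*, a coiled-coil protein of neural tissue, had 69, 199.5 and 189.5 against 0, 0.4 and 0. *DENND2C*, an exchange factor for Rab proteins, had 106.29, 44 and 259 against 1, 0 and 0. The highest proliferating library was replicate 3 for *MPP2* and *DENND2C* and replicate 2 for *RIMS3* and *JAKMIP2*, so these genes did not peak together.

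The others of these rows were *EXOC3L1*, *CAND2*, *CMYA5*, *MYO16*, *FAM78B* and *ANKRD55*, with single proliferating libraries from 13 to 333 normalised read counts. *EXOC3L1*, an exocyst-related protein, stayed within 1.17-fold. Of 10 neuron markers *SNAP91* and *GRIN2B* were in the table, both with a lower mean in dormant cells and both left out of the group by the rule, with 422, 717 and 655 against 2, 4 and 4 counts and 556.5, 64 and 96 against 0 in each. Of 9 oligodendrocyte markers *BCAN* and *CSPG5* were in the table, with at most 2 counts in a dormant library, and of 6 astrocyte markers *SLC1A3*, which was higher there, with 2703, 5077 and 3382 counts against 786, 1238 and 1078. The part of RNA from such cells in the values of the group was not tested.

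Pseudogenes and noncoding RNAs gave 7 rows with means of 37.2 to 120 normalised read counts. *HTATSF1P2* had 210.5, 104.5 and 118.5 counts in the proliferating and 0, 0 and 1 in the dormant libraries. Of its words, 45.1% occur in transcripts of other genes, and 47.7% of its exon length overlaps a gene on the opposite strand. Its count may therefore include reads of that gene. *SALRNA1*, a long noncoding RNA, had 42, 60 and 36 against 0 in each. *PCNPP1* had 45.5, 52.67 and 26 against 1.5, 1.33 and 0, and *SNORA3B*, a small nucleolar RNA, 128.5, 41 and 22.5 against 0 in each. After normalisation replicate 3 was the lowest proliferating library for 7 of the 7 rows. *MBL1P*, *RPL21P121* and *RN7SL443P* had 10 to 126.5 counts in single proliferating libraries. Per kilobase of exon *SNORA3B* was the highest of the 78, at 394 normalised read counts, a value that rests on a length of 131 bases.

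Proliferating libraries disagreed over the level of many of these genes. Taken as the highest over the lowest library, each plus 1, the spread had a median of 3.68-fold and reached at least 5-fold for 27 of the 78 genes (34.6%). After *B3GNT3* the widest were *NRTN*, at 36.1-fold with 34, 305 and 10 counts, *SIX2*, at 23.1-fold with 16.67, 285 and 224, *VSIG1* at 18.9-fold and *ERP27* at 14.5-fold. These 5 peaked in replicate 2 or 3. Over the 78 genes, 29 were highest in replicate 1, 35 in replicate 2 and 14 in replicate 3, and 38 were lowest in replicate 3. The count of 27 fell to 15, 14 and 13 without proliferating replicate 1, 2 and 3 in turn, where fewer libraries were compared.

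**Figure D3:**
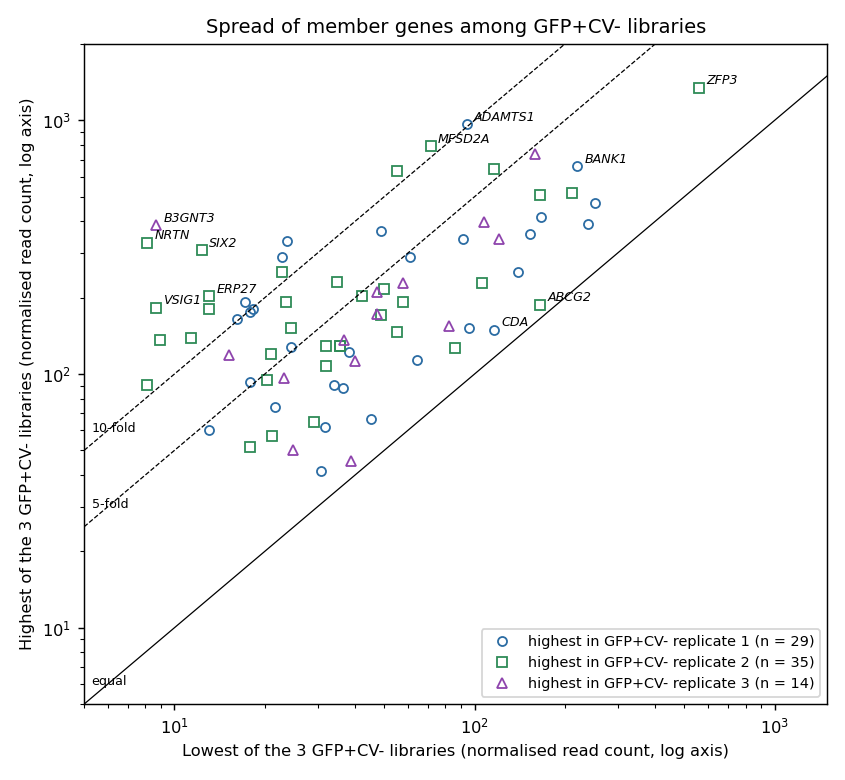
Lowest against highest normalised read count among the 3 GFP+CV- libraries for each of the 78 rows, both log axes, with the symbol and colour giving the replicate in which the gene was highest. The solid line marks equal values and the dashed lines 5-fold and 10-fold differences. *ABCG2* and *CDA* lie near the solid line, while *B3GNT3*, *NRTN*, *SIX2* and *VSIG1* lie far above the 10-fold line.

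The group was set beside other listed genes, first at any level and then within its own range of levels. The other 507 listed genes that were lower in dormant cells had a median proliferating level of 7172 normalised read counts and a median spread of 1.26-fold. The 133 of them whose mean lay in the range of the group had a median level of 150, a median spread of 2.79-fold and a spread of at least 5-fold in 22.6%. Of those 133, 72 had more than 3 counts in a dormant library, and 19.4% of these 72 had a spread of at least 5-fold. Their median level was 275.5 normalised read counts, against 104.2 in the group. The sets thus differ in level as well as in spread. These are descriptions, and the difference in spread was not tested.

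The rule was also applied to 2 dormant libraries at a time, to see what the third held. With dormant replicate 1 left out, 86 genes met it, of which 78 (90.7%) had at most 3 counts in that library. With replicate 2 left out the figures were 87 genes and 89.7%, and with replicate 3 left out 88 genes and 88.6%. Over all listed genes that were lower in dormant cells, 28.2% to 29.7% had at most 3 counts in a given dormant library. Outside the group those genes had a median proliferating level of 7172 normalised read counts, against 104.2 in the group. These shares are therefore not matched for level. The exceptions were 8, 9 and 10 genes above 3 counts, of which 3, 3 and 1 were above 10. *CCDC74B* reached 26 counts in replicate 1, *ZFP69B* 95 in replicate 2 and *NUP210* 12 in replicate 3. By construction the genes at or below 3 counts are the 78 members each time, so the shares of 88.6% to 90.7% only count near misses. The table was chosen with all 6 libraries, so the third library is not independent of the choice. Nothing is read from these shares or from their distance to those over all lower genes.

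**Figure D4:**
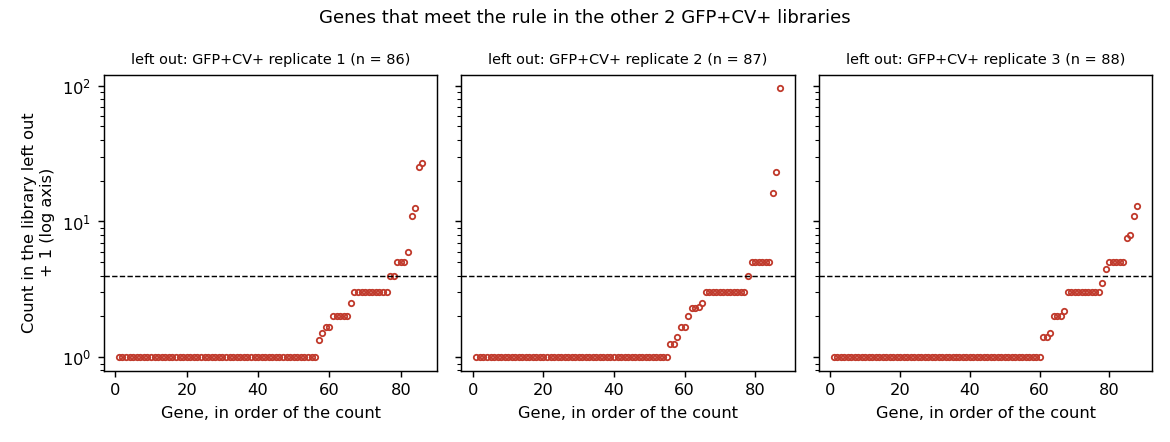
Estimated count plus 1 (log axis) in the GFP+CV+ library that was left out, for genes that meet the rule in the other 2, in rising order of the count, one panel for each library. The dashed line marks 3 counts. The 78 member genes lie at or below it in every panel, and 8, 9 and 10 further genes lie above it.

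The opposite case was rarer in the table. At most 3 counts in every dormant library were found for 140 of the 585 listed genes that were lower there (23.9%), and at most 3 counts in every proliferating library for 12 of the 576 that were higher in dormant cells (2.08%). With the same names left out, 78 and 6 remained. The 6 were *PDE1A*, *FMO2*, *ACKR3*, *CTTNBP2*, *TPSAB1* and *PPP1R14A*, with 2.17 counts or fewer in each proliferating library. They had 15 to 1638 counts in the dormant libraries. Sorted GFP+CV- cells far outnumbered GFP+CV+ cells, and the part of cell number in this difference was not tested.

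By position, the 77 matched rows lay on 22 chromosomes, and 8 of them (10.4%) were on chromosome X, against 3.29% of all listed genes with a match. These were *CRLF2*, *VSIG1*, *SCML2*, *CITED1*, *NAP1L3*, *SSX1* and the pair *HSFX1* and *HSFX2*, which share most of their sequence. Exons overlapped a gene on the opposite strand for 17 rows (22.1%), against 40.0% of all listed genes, and 4 rows (5.19%), *HSFX1*, *HSFX2*, *HBE1* and *POU5F1*, shared more than 50% of their words with transcripts of other genes, against 10.7%. The median exonic length was 3255 bases in the group, 4294 over all listed genes and 3088 over the other listed genes that were lower in dormant cells. The rule did not use these features directly. Its name filter, however, left out numbered antisense genes, clone-named and LINC transcripts and several large gene families, which the comparison sets keep. The shares are therefore not matched for names, and the differences were not tested.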

How the data were processed

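Sequencing libraries of 6 samples, 3 GFP+CV- and 3 GFP+CV+, were compared with the groups taken from the sample labels. The authors aligned trimmed reads (Cutadapt) to human GRCh38.p12 and mouse GRCm38.p6 sequences, joined into 1 reference with GENCODE 31 and M22 genes, using STAR 2.7. RSubread then gave counts that include reads with several positions, and mouse reads were removed. Strand was not stated to be used. The deposited estimated counts are not normalised and 43.2% to 49.6% of the values in a library are not whole. The deposited normalised read counts are a signal value that the authors made by rounding the counts and dividing them by 1 DESeq2 size factor per library (0.724 to 1.38 here). Columns of the authors' own fold changes and p-values were not used. The table holds genes that the authors called and no others, and its depth and background are those of a selected list.

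Members were found by the rule, roles and lists were written by hand, and members, roles and lists were chosen with earlier results of these data known. The rule for named genes took the 4 members of each role with the highest lowest proliferating value, the 5 widest spreads, the genes at 3 dormant counts, those just outside the ceiling (up to 5 counts), duplicated genes and list members, and other genes are named with their range. The genes whose start regions are printed, and those named for the third library, were chosen after their values were seen. Estimated counts were rounded and fitted over all 1161 rows with edgeR 4.0.16 (R 4.3.3), with the authors' size factors and the population as the only term, to give the background. Alternatives used limma 3.58.1 and DESeq2 1.42.0, TMM factors, a filter, a replicate block and each library left out. The fits were tested on simulated data. Folds against dormant cells used a floor of 3 counts per library, or a 95% exact Poisson interval of the rounded dormant counts. Shared sequence was the share of 31-base words of GENCODE 44 transcripts found in another gene. Same-numbered libraries came from the same pool, so the number is a block, although the deviations of same-numbered libraries correlated by 0.0567, -0.0183 and 0.00125 over 1161 genes. Libraries of 1 group came from independent experiments. Python 3.11.15, pandas 2.3.3, scipy 1.17.1 and matplotlib 3.10.9 were used. Values of 1 member gene and 1 list marker are not reported here, and counts and medians over the 78 rows include that gene.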

Additional observations from a re-analysis of the deposited data

How the results depend on the processing

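The number of genes that met the rule was 31 with a ceiling of 0 counts and 140 with no name left out, against 78, and 78 to 88 when single libraries were dropped. The median fold against the floor was 97.8 with 3 counts over the dormant libraries together, in place of 31.6 with 3 counts in each, because the floor is lower by construction, and 28.4 to 36.3 with a library left out. The median proliferating level was 93.6 to 111.5 with a library left out. The number of genes with a 5-fold spread was 13 to 15 with a proliferating library left out, against 27, since 2 libraries span less than 3. Genes called lower over the table numbered 581, 553 with the replicate block and 555 to 578 with a library left out, and the replicate block changed none of the 78 calls. Of 51 alternatives, 45 stayed within 1.5 times of the value given. Many of the 51 were calls refitted on a table of genes already called by the authors, and these had little room to move. The ceiling of 3 counts and the choice of listed genes limit what can be said of dormant cells, since at this depth a gene at 0 is not shown to be silent.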
